A study of Mus musculus with 15 samples.

Results

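The 37 genes described here are cell cycle and proliferation genes, taken by name from a fixed list: 11 genes of DNA replication, 19 genes of mitosis and 7 genes that act in G1, before DNA synthesis starts. They are 37 of the 36528 genes counted in each library. The libraries hold total RNA of cortical microglia, the resident macrophages of the brain, isolated by the fluorescence of a Cx3cr1-GFP reporter, which marks microglia and which both groups carry. Of the 15 libraries, 9 came from PS2APP mice, which carry transgenes for human mutant presenilin 2 and human mutant amyloid precursor protein and form amyloid plaques, and 6 from non-Tg mice, the wild type group. PS2APP libraries came from animals of 14 months (n = 4) or 15 months (n = 5), and wild type libraries from animals of 14 months (n = 2) or 15 months (n = 4). Wild type samples 12 and 13 and PS2APP sample 14 were low in Xist (134, 356 and 67 reads). They held the Y-chromosome gene Ddx3y at 640, 1746 and 443 reads, against at most 4 in any other library. The sexes thus appear mixed and unevenly split, and sex was not a term of the fit. The labels give neither the promoters that drive the transgenes nor whether each library is a separate mouse, so p-values measure the spread between these libraries. Total counts per library ranged from 3664742 to 8455237 with a median of 5867848. The comparison asked whether genes of cell division differ between microglia of PS2APP and wild type cortex at this age. In bulk RNA of this kind, fewer cells of a type and less RNA per cell cannot be told apart.

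A dividing cell first copies its genome and then separates the copies. D-type cyclins with the kinases Cdk4 and Cdk6, and then E-type cyclins, release E2F factors, which switch on the genes that license replication origins and make deoxynucleotides. Later in the cycle, B-type cyclins with Cdk1, the Aurora and Polo kinases and the spindle proteins drive mitosis, and many of their genes share promoter elements read by the DREAM and B-Myb complexes. Adult microglia divide slowly in the undisturbed brain and are known to accumulate around amyloid plaques.

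Transcripts of both stages were present at low level in both groups, and 0 of the 30 members that could be tested passed the test for genotype. The test was edgeR's quasi-likelihood test with age as a term and Benjamini-Hochberg adjustment over all 13994 genes tested, at an adjusted p of 0.05, which called 1.18% of those genes (0.958% higher and 0.222% lower in PS2APP). The smallest adjusted p among the members was 0.171, for the thymidylate synthase gene Tyms. At an unadjusted p of 0.05 there were 6 members of 30, against 11.7% of all genes tested. Of these, 4 had the higher mean in PS2APP (Tyms, Top2a, Cenpe and Ccnb2), where 5.73% of all genes lay on that side, and 2 the lower (Ccnd3 and Mcm4), against 5.95%. The groups overlapped for all 37 members, while 0.636% of all genes tested had groups that did not overlap. The plot of the 30 fold changes shows intervals that widen from the replication and G1 genes to the mitosis genes.

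**Figure D1:**
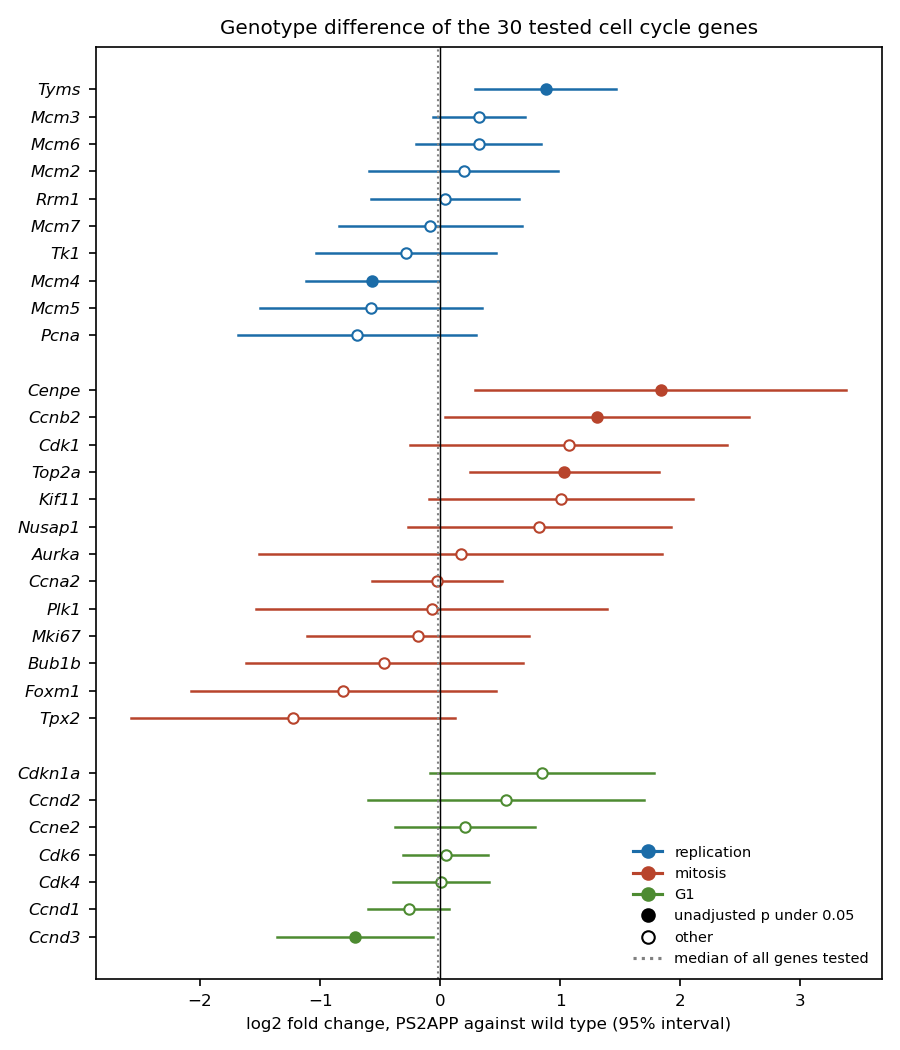
Log2 fold change of the 30 tested cell cycle genes, PS2APP (n = 9) against wild type (n = 6), with its 95% interval from edgeR. Filled points have an unadjusted p under 0.05, and the dotted line at -0.02 is the median of all genes tested; no gene passed after adjustment, and the mitosis genes have the widest intervals.

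Promoters of the members were searched for 3 motifs known from cell cycle genes, and the shares below are counts with no test of a difference. RefSeq promoter windows of 300 bases (250 before an annotated start to 50 after it, GRCm38.p6) matched 29 of the 37 members: 10 replication, 15 mitosis and 4 G1 genes. They were searched on both strands for the CHR element TTTGAA, the CCAAT box and the E2F site in 4 spellings (TTTGGCGC, TTTCCCGC, TTTGCCGC and TTTCGCGC), and matches may overlap. A CHR element was in the windows of 10 of 15 mitosis genes (66.7%) and 1 of 10 replication genes (Mcm2), where 20.2% of the 27025 genes in the table held one. Within 200 bases before the start, it was in 6 of 15 mitosis genes (40.0%), against 14.4% of all genes. E2F spellings were in 4 of 10 replication genes (40.0%, namely Mcm3, Mcm5, Mcm6 and Mcm7) and 1 of 15 mitosis genes (6.67%, Cdk1), against 2.60% of all genes. CCAAT boxes were in 8 of 10 replication genes (80.0%) and 13 of 15 mitosis genes (86.7%), against 41.1% of all genes. The 4 G1 genes held no CHR or E2F match and 1 of them, Ccnd3, a CCAAT box. A match is a run of letters and not a shown binding site, and its absence says only that these spellings are not in the window.

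**Figure D2:**
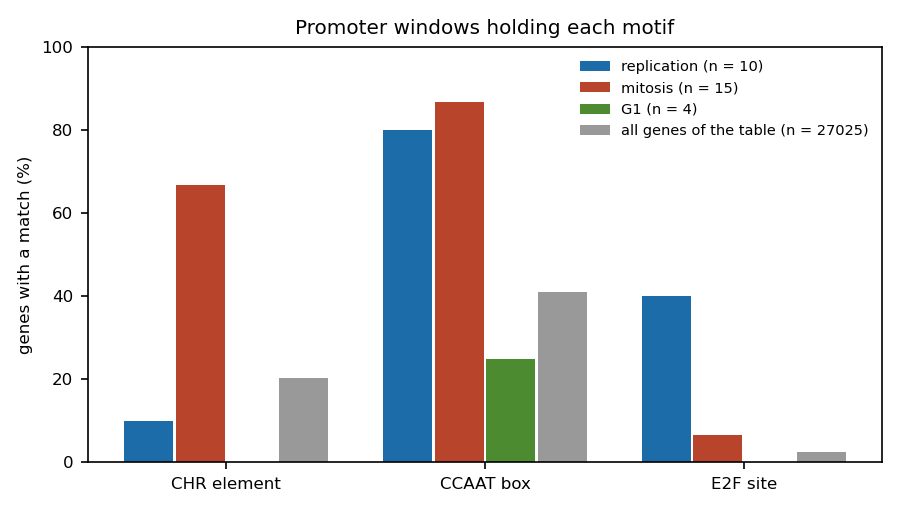
Share of genes (%) whose RefSeq promoter window holds each motif on either strand, for 10 replication, 15 mitosis and 4 G1 genes and all 27025 genes of the table. CHR elements are most frequent in the mitosis genes (66.7%) and E2F spellings in the replication genes (40.0%).

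The stretches below show both kinds of promoter for members that recur in the results. Each is the 160 bases that end just before the first annotated base of the gene, 5′ to 3′ on the gene's strand, and capitals mark every CHR, CCAAT or E2F match on either strand. The replication genes come first. Mcm5 lies at chr8:75109308-75109467 (plus strand), Mcm6 at chr1:128359706-128359865 (minus strand) and Tyms at chr5:30073646-30073805 (minus strand).
Mcm5: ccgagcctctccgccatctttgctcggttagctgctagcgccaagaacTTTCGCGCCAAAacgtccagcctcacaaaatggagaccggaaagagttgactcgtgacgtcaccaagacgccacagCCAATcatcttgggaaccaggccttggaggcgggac
Mcm6: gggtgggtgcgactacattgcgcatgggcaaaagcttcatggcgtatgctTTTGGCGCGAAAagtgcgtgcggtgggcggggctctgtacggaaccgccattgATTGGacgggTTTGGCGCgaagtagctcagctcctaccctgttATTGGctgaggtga
Tyms: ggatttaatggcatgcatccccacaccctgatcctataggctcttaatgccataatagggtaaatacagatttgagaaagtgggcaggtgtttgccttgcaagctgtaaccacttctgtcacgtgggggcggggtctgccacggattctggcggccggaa
In Mcm5 and Mcm6 a pair of E2F spellings overlap on opposite strands, and Tyms, the replication gene with the smallest p, has no match to any of the 3 motifs in this stretch. Among the mitosis genes, Top2a lies at chr11:99024200-99024359 (minus strand), Cdk1 at chr10:69352913-69353072 (minus strand), Cdc20 at chr4:118437344-118437503 (minus strand) and Mki67 at chr7:135716451-135716610 (minus strand).
Top2a: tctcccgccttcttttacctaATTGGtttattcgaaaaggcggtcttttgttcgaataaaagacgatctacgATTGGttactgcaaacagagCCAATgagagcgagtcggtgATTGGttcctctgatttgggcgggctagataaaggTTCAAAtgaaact
Cdk1: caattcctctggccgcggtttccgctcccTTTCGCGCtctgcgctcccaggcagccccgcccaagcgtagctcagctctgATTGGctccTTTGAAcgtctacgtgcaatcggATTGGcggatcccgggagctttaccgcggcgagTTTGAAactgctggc
Cdc20: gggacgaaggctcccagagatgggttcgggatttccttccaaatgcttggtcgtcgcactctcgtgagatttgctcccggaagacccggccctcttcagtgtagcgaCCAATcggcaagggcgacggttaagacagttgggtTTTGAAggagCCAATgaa
Mki67: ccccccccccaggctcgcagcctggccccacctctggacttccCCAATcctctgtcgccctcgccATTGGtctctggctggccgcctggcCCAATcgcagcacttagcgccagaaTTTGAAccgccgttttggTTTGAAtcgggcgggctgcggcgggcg
Each of these 4 stretches holds at least 1 CHR element and 1 CCAAT box, and Cdk1 also has an E2F spelling. The 8 tested mitosis genes with a CHR match had log2 fold changes from -0.46 to 1.31 (median 0.59, 5 positive), and the 2 tested without one, Nusap1 and Cenpe, stood at 0.83 and 1.84. Genes with and without the element thus covered overlapping values.

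Replication genes had a median of 1017 reads over all 15 libraries, G1 genes 1501 and mitosis genes 240. The read totals by gene span from 33 for Ccnb1 to 23055 for Cdk6. Of the 37 members, 7 fell below the count filter and were not tested, 6 of them mitosis genes (Ccnb1, Birc5, Bub1, Cdc20, Aurkb and Cdca8) and 1 a replication gene (Rrm2). Fewer than 100 reads in all were found for 5 members, and 11 had no read in at least 1 library. The median standard error was 0.33 on the log2 scale for tested replication genes and 0.61 for tested mitosis genes. The 95% interval of the fold change stayed within a 2-fold difference either way for 5 of 10 replication genes, 4 of 7 G1 genes and 1 of 13 mitosis genes, the last being the cyclin A gene Ccna2. For the other 20 members a 2-fold difference lay inside the interval.

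**Figure D3:**
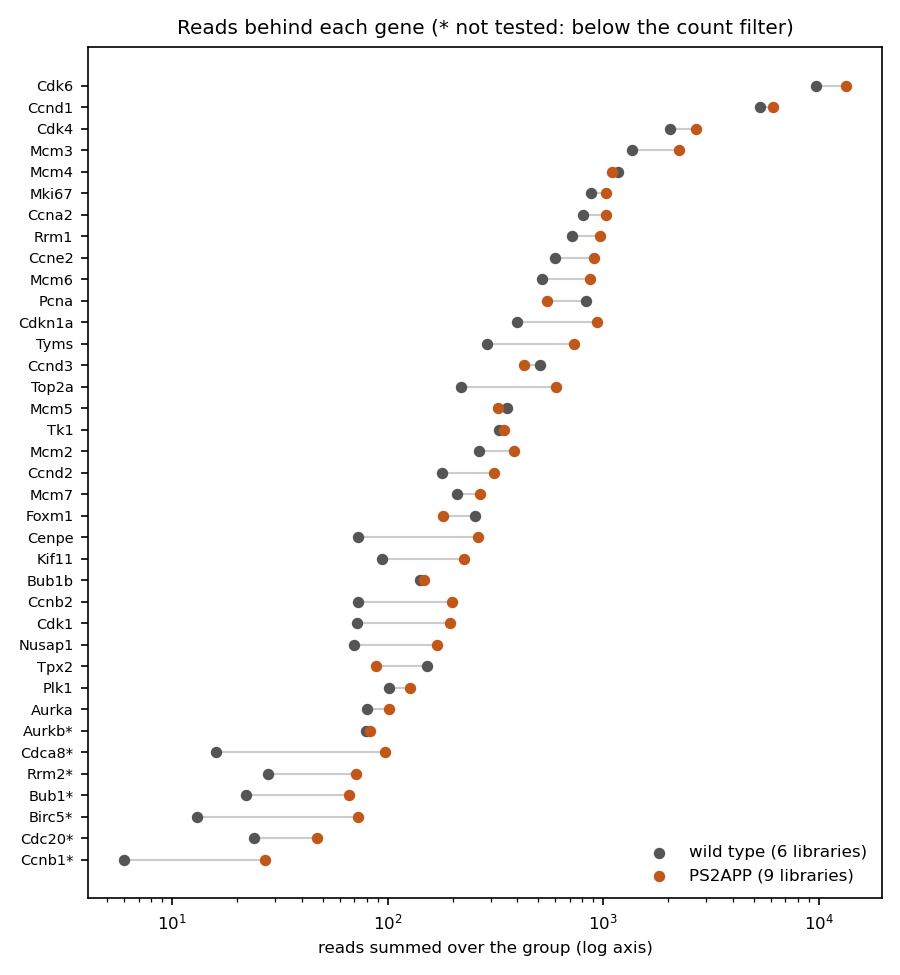
Reads of each of the 37 genes summed over 6 wild type and 9 PS2APP libraries (log axis), with an asterisk on the 7 genes below the count filter. Totals run from 33 reads (Ccnb1) to 23055 (Cdk6), and the mitosis genes take most of the lower places.

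Summed over each stage, levels were alike in size between the groups. CPM values are counts scaled to the TMM-adjusted library size. The 11 replication genes together stood at 165 ± 30.9 CPM in wild type (SD, n = 6) and 163 ± 13.9 CPM in PS2APP (SD, n = 9), and the ratio was 0.990. At 14 months that ratio was 0.839 and at 15 months 1.09. The 19 mitosis genes together stood at 87.6 ± 22.4 CPM in wild type and 98.6 ± 23.6 CPM in PS2APP, so that PS2APP was 1.13 times wild type. The largest parts of that sum were Mki67 (24.5 CPM in wild type, 21.3 in PS2APP) and Ccna2 (22.2 and 21.7 CPM). Wild type sample 11, at 130 CPM, was the highest of its group for that sum, and without it the ratio was 1.24 (wild type 79.2 ± 9.73 CPM, n = 5). The 7 G1 genes stood at 512 ± 67.8 and 509 ± 50.04 CPM, a ratio of 0.994, with Cdk6 (266 and 277 CPM) and Ccnd1 (144 and 123 CPM) as the largest parts. None of these 3 differences exceeded the spread between libraries, and no test was made on sums over chosen genes.

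Gene by gene, the tested members of the stages differed little in direction. Of the tested replication genes 5 had a positive and 5 a negative log2 fold change, with a median of -0.02, the same to 2 decimals as the median of all genes tested, of which 47.3% were positive. The 13 tested mitosis genes split 7 to 6 with a median of 0.17. They ranged from -1.23 (Tpx2) to 1.84 (Cenpe), against -0.69 (Pcna) to 0.88 (Tyms) for replication. The median of the mitosis genes rests on single libraries: it was -0.05 without wild type sample 2, 0.53 without wild type sample 11 and 0.63 without wild type sample 9. The G1 genes split 5 to 2 with a median of 0.04.

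**Figure D4:**
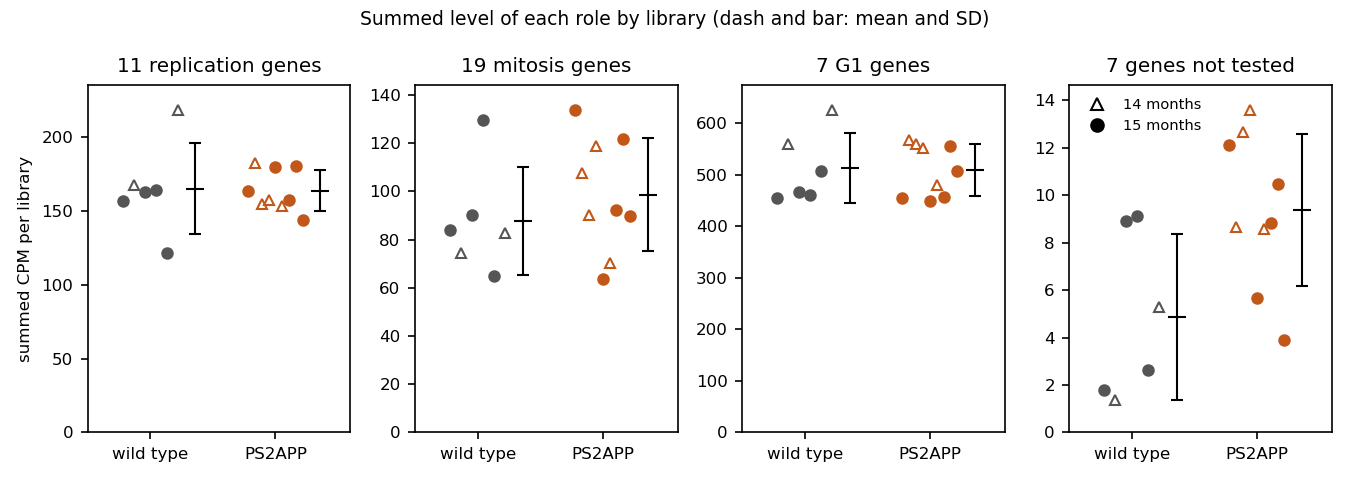
Summed CPM of the replication, mitosis and G1 genes, and of the 7 genes below the count filter, in each of 6 wild type and 9 PS2APP libraries, with triangles for 14 months, circles for 15 months, and mean and SD beside them. Replication sums centre on 165 and 163 CPM, and the 7 rarest genes on 4.85 and 9.39 CPM, with overlapping groups in each panel.

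Among the replication genes, Tyms had the smallest p-value of all tested members. Thymidylate synthase makes the thymidine nucleotide used in DNA synthesis. The gene (chr5:30038546-30073645, GRCm38.p6) ranged in wild type from 6.35 CPM over a median of 7.24 to 13.6, and in PS2APP from 9.21 over 15.9 to 19.8. All 9 PS2APP libraries lay above 5 of the 6 wild type libraries, and wild type sample 5 was the exception. The means were 8.31 ± 2.76 CPM (SD, n = 6) and 15.3 ± 3.53 CPM (SD, n = 9). The fitted log2 fold change was 0.88 ± 0.28 (SE), a 1.84-fold difference, with an edgeR adjusted p of 0.171. It was past the threshold with DESeq2 (log2 fold change of 0.89, adjusted p = 0.0363), which called 1.9% of the genes it tested, and was not called in the other alternatives. Without wild type sample 5 the edgeR log2 fold change was 1.12 with an adjusted p of 0.0722.

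Mcm2 to Mcm7 encode the hexameric helicase that is loaded at replication origins and unwinds DNA at the fork. Mcm4 (chr16:15623897-15637400) ranged from 19.4 CPM over a median of 26.7 to 76.0 in wild type, and from 17.9 over 23.3 to 28.4 in PS2APP. Its highest value belonged to wild type sample 11, and the other 5 wild type libraries lay between 19.4 and 32.9 CPM, around the PS2APP values. The log2 fold change of Mcm4 was -0.57 ± 0.27 (edgeR adjusted p = 0.412) and, without that library, -0.17. Mcm3, the most abundant of the helicase genes, had means of 37.1 ± 6.98 and 46.9 ± 9.32 CPM (log2 fold change 0.33 ± 0.19, edgeR adjusted p = 0.518). Mcm6 stood at 14.6 ± 3.71 and 18.2 ± 5.13 CPM, with PS2APP sample 15 highest at 30.5. Mcm2 and Mcm7, at 7.12 ± 3.04 and 5.72 ± 1.81 CPM in wild type, had log2 fold changes of 0.20 ± 0.38 and -0.08 ± 0.37. Mcm5 stood at 26.7 CPM in wild type sample 2 and between 2.64 and 10.1 in the other 5 wild type libraries, beside 2.46 to 9.15 in PS2APP. The 6 subunits, which act in 1 complex, thus had no common direction: 3 were positive and 3 negative, and none passed the test.

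Pcna encodes the sliding clamp that holds DNA polymerases on the template. It ranged from 4.43 CPM over a median of 9.55 to 65.2 in wild type, and from 6.48 over 10.04 to 23.1 in PS2APP. A single library, wild type sample 13, set its negative log2 fold change of -0.69 ± 0.48 (edgeR adjusted p = 0.620), which was 0.35 without that library. Sample 13 was also the library highest in immediate early genes, 8 genes summing to 11619 CPM there. Wild type sample 9 and PS2APP samples 1 and 4, also high in these genes, had Pcna at 22.8, 13.6 and 10.4 CPM. In addition, sample 13 was the highest library for summed markers of neutrophils (50.6 CPM), erythroid cells (44.2 CPM), T cells (5.68 CPM) and astrocytes (886 CPM). A link of Pcna with any of these was not tested. Rrm1, the large subunit of ribonucleotide reductase, which makes deoxynucleotides, was close between groups at 19.4 ± 8.59 and 20.05 ± 3.99 CPM, with a 95% interval of its log2 fold change from -0.58 to 0.65. Its partner subunit Rrm2 was below the filter, with 28 reads in 6 wild type libraries, 20 of them in sample 11, and 71 reads in 9 PS2APP libraries. Tk1, the thymidine salvage kinase, stood at 8.29 ± 4.31 and 6.997 ± 2.22 CPM (log2 fold change -0.28 ± 0.36). So of the genes that supply nucleotides, Tyms alone had an unadjusted p under 0.05.

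**Figure D5:**
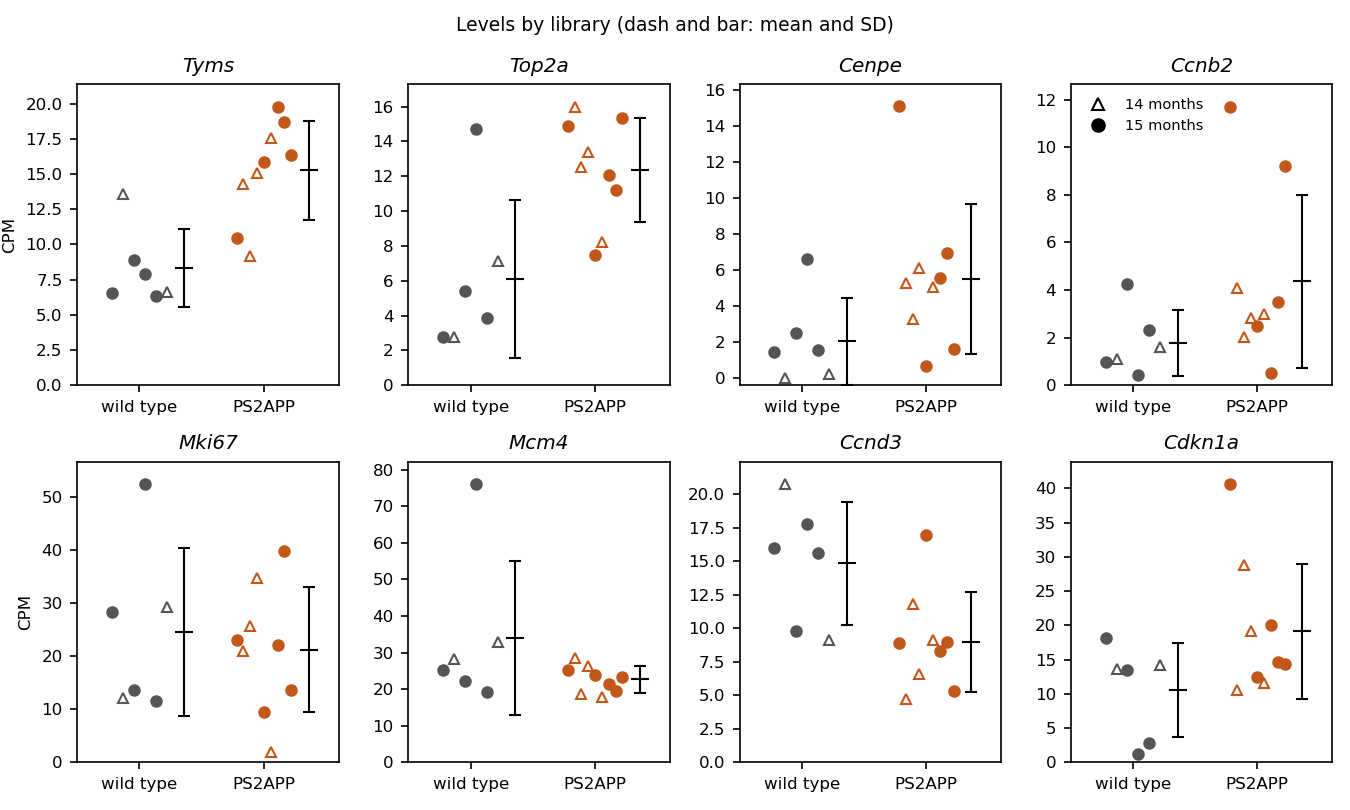
CPM of 8 cell cycle genes in each of 6 wild type and 9 PS2APP libraries, with triangles for 14 months, circles for 15 months, and mean and SD beside them. Tyms and Top2a show all 9 PS2APP libraries above 5 of 6 wild type libraries, while in Mki67 and Mcm4 wild type sample 11 (52.4 and 76.0 CPM) is the highest library of all.

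Mitosis genes with the smallest p-values had the higher mean in PS2APP. Top2a encodes topoisomerase II alpha, which untangles replicated chromosomes. The gene (chr11:98992947-99024199) ranged from 2.77 CPM over a median of 4.63 to 14.7 in wild type, and from 7.48 over 12.5 to 16.0 in PS2APP. As with Tyms, all 9 PS2APP libraries lay above 5 of the 6 wild type libraries, here with wild type sample 11 as the exception. Means were 6.11 ± 4.53 and 12.4 ± 3.0004 CPM. The fitted difference was 1.03 ± 0.38 on the log2 scale, with an edgeR adjusted p of 0.241. Without wild type sample 11, Top2a had a log2 fold change of 1.47 ± 0.33 and passed the test (edgeR adjusted p = 0.0253), 1 of 185 genes then called (1.29% of those tested). It was the only member called without that library. Top2a was positive at each age alone, 1.32 at 14 months and 0.87 at 15 months, and called at neither, where 0.338% and 0.476% of all genes were called.

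Mki67 encodes the Ki-67 protein, the widely used marker of cycling cells, and its fitted difference was negative where that of Top2a was positive. It ranged from 11.6 CPM over a median of 20.9 to 52.4 in wild type, and from 1.87 over 22.1 to 39.8 in PS2APP. Wild type sample 11 was the highest and PS2APP sample 8 the lowest of the 15 libraries, and the groups overlapped, with PS2APP samples 7 and 8 below the wild type minimum. Means were 24.5 ± 15.8 and 21.3 ± 11.8 CPM, and the log2 fold change of -0.18 ± 0.45 had a 95% interval from -1.11 to 0.74 (edgeR adjusted p = 0.924). Without wild type sample 11 the log2 fold change of Mki67 was 0.16. With the mean level of neuron markers as a covariate it was 0.70. Summed neuron markers, a related measure to that covariate, lay at 78.6 to 206 CPM in wild type and 14.9 to 78.5 CPM in PS2APP. The sums did not overlap, by a narrow margin, while each of the 8 markers alone overlapped between the groups. Neuron markers thus largely followed genotype, and that fit can separate them only poorly. In the main fit, a 2-fold lower level of Mki67 in PS2APP lay inside the interval, and a 2-fold higher one outside it. Sample 11 had the highest summed neuron markers (206 CPM, where the other wild type libraries held 78.6 to 154) and neutrophil markers at 19.7 CPM. Neutrophil markers were higher in wild type samples 9 (20.5 CPM) and 13 (50.6 CPM), where Mki67, Top2a and Mcm4 were lower. The part of other cells in its high Mki67, Top2a and Mcm4 was not tested.

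Cyclins and their kinase carry the entry into mitosis. Ccnb2, one of the B-type cyclins (chr9:70407689-70421554), ranged from 0.414 CPM over a median of 1.35 to 4.27 in wild type, and from 0.490 over 2.99 to 11.7 in PS2APP. PS2APP samples 1 and 15 stood apart at 11.7 and 9.21 CPM, and the other 7 lay between 0.490 and 4.08, inside the wild type range. Its log2 fold change was 1.31 ± 0.61 (edgeR adjusted p = 0.406) and 0.99 without PS2APP sample 1, on 73 wild type and 199 PS2APP reads. With neuron markers as a covariate, hard to separate from genotype here, the log2 fold change of Ccnb2 was -0.18. Cdk1, the kinase these cyclins activate, stood at 1.71 ± 1.47 and 3.93 ± 1.95 CPM (log2 fold change 1.07 ± 0.64, edgeR adjusted p = 0.542). Ccna2, cyclin A, which acts from DNA synthesis into mitosis, was the most even mitosis gene, at 22.2 ± 5.81 and 21.7 ± 6.95 CPM. The 95% interval of its log2 fold change ran from -0.57 to 0.52, so a difference of 2-fold lay outside it. Ccnb1, the other B-type cyclin listed, gave 6 reads in wild type and 27 in PS2APP, too few to test.

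Spindle and kinetochore genes pointed in both directions. Cenpe encodes the kinetochore motor that aligns chromosomes, and had the highest log2 fold change of the tested members. The gene (chr3:135212563-135273540) ranged from no read over a median of 1.51 CPM to 6.63 in wild type, and from 0.680 over 5.27 to 15.1 in PS2APP. PS2APP sample 1 was highest, wild type sample 11 exceeded 7 of the 9 PS2APP libraries, and the groups overlapped. The log2 fold change was 1.84 ± 0.74 (edgeR adjusted p = 0.310), and 1.41 without PS2APP sample 1. Kif11, the motor that separates the spindle poles, stood at 2.39 ± 1.63 and 4.91 ± 2.47 CPM (log2 fold change 1.01 ± 0.53, edgeR adjusted p = 0.474). Nusap1, a spindle-binding protein, stood at 2.16 ± 1.94 and 3.58 ± 0.930 CPM. Tpx2, which activates Aurora A on the spindle, went the other way at 4.30 ± 3.10 and 1.75 ± 1.06 CPM. Its log2 fold change was -1.23 ± 0.65 (edgeR adjusted p = 0.477) and -0.87 without wild type sample 11, its highest library at 9.74 CPM.

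The mitotic kinases, the checkpoint kinase Bub1b and the transcription factor Foxm1, which switches on many mitosis genes, each showed wide spread. Aurka, Aurora A, had means of 2.03 ± 2.45 and 2.04 ± 1.13 CPM. Plk1, Polo-like kinase, had means of 2.86 ± 1.66 and 2.69 ± 3.82 CPM, with 61 of its 127 PS2APP reads in sample 15, and its log2 fold change of -0.07 became -1.04 without that library. Bub1b stood at 15.8 CPM in wild type sample 5 and between 0.981 and 4.09 in the other wild type libraries. Its log2 fold change of -0.46 ± 0.56 was 0.15 without that library. Foxm1 stood at 20.1 CPM in wild type sample 2 and at no read in wild type sample 11, and its log2 fold change of -0.81 ± 0.61 was -0.22 without sample 2. For Plk1, Bub1b and Foxm1 a single library decided the size or the sign of the difference.

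The 7 members below the filter were counted by their reads. Birc5, survivin, a subunit of the chromosomal passenger complex, gave 1 to 3 reads in each wild type library (13 in all) and 2 to 15 in each PS2APP library (73 in all). Cdca8, borealin, of the same complex, gave 16 reads in wild type, 10 of them in sample 13, and 97 in PS2APP, 52 of them in samples 1 and 4. Aurkb, Aurora B, the kinase of that complex, gave 79 reads in wild type, 45 of them in sample 9, and 83 in PS2APP. Most of the Aurkb reads in wild type came from that 1 library. Bub1, a checkpoint kinase, gave 22 and 66 reads, and Cdc20, the activator that releases anaphase, 24 and 47. Together the 7 summed to 4.85 ± 3.50 CPM in wild type and 9.39 ± 3.21 CPM in PS2APP, 1.93 times as much, with 8 of 9 PS2APP libraries above the wild type median and 4 above the wild type maximum. At 14 months the ratio was 3.26 and at 15 months 1.46, with 2 wild type libraries at the earlier age. Fitted without the count filter, when edgeR called 2.5% of all genes, none of the 7 was called, with adjusted p from 0.236 (Cdca8) to 0.733 (Rrm2). Over all 37 members the spread exceeded counting error: the median ratio of variance to that expected from counting was 11.6 in wild type and 6.14 in PS2APP. For the 7 members below the filter, that ratio ran from 0.92 (Birc5) to 16.8 (Rrm2) in wild type. In PS2APP it ran from 2.11 (Rrm2) to 8.10 (Cdca8).

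G1 genes were the best measured. Per length, on the authors' deposited RPKM scale, Cdk4 (9.96 ± 2.56 in wild type), Ccnd1 (9.55 ± 1.96) and Cdk6 (6.17 ± 1.80) had the highest levels of the 37 members. Pcna (4.11 ± 4.94) and Mcm3 (3.43 ± 0.648) came next, Mki67 stood at 0.647 ± 0.417 and Ccnb1 was lowest at 0.016 ± 0.025. With all 37 members put in order of their wild type mean, the step from Ccnd1 to Cdk6 exceeded both SDs. Every other pair of neighbours in that full order differed by less than the larger of their SDs. Cdk4 was at 56.2 ± 14.6 CPM in wild type and 55.6 ± 12.3 CPM in PS2APP, and Cdk6 at 266 ± 77.2 and 277 ± 54.8 CPM. These kinases partner the D-type cyclins, and their 95% intervals ran from -0.39 to 0.41 and from -0.31 to 0.40 on the log2 scale. Ccnd1, cyclin D1, the main D-type cyclin of these cells by level, stood at 144 ± 29.9 and 123 ± 29.2 CPM (log2 fold change -0.26 ± 0.16, edgeR adjusted p = 0.566).

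Ccnd3, cyclin D3 (chr17:47505051-47599689), ranged from 9.11 CPM over a median of 15.8 to 20.8 in wild type, and from 4.76 over 8.93 to 17.0 in PS2APP. PS2APP sample 7 lay among the higher wild type values, and 6 of the 9 PS2APP libraries lay below the wild type minimum. Its log2 fold change was -0.71 ± 0.31 (edgeR adjusted p = 0.372), with a wild type mean of 14.9 ± 4.57 and a PS2APP mean of 8.99 ± 3.701 CPM. Ccnd2, cyclin D2, pointed the other way at 4.59 ± 2.86 and 6.52 ± 3.88 CPM (log2 fold change 0.55 ± 0.55). Cdkn1a encodes p21, an inhibitor of cyclin-dependent kinases induced by p53. It ranged from 1.24 CPM over a median of 13.6 to 18.2 in wild type, and from 10.5 over 14.7 to 40.6 in PS2APP. Wild type samples 11 and 12 were low and PS2APP samples 1 and 4 high, with the other 11 libraries between 10.5 and 20.1 CPM. PS2APP samples 1 and 4 were also high in immediate early genes (2140 and 1936 CPM). So were wild type samples 9 and 13, with Cdkn1a at 13.6 and 14.3 CPM, and a link was not tested. The log2 fold change of Cdkn1a was 0.85 ± 0.45 (edgeR adjusted p = 0.475).

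At 15 against 14 months 0 of 30 members passed the edgeR test, where 0.0% of all genes tested did, and 1 had an unadjusted p under 0.05, against 7.95% of all genes. That member was Ccne2, cyclin E2, which drives entry into DNA synthesis, with a log2 fold change of -0.67 ± 0.28 for age. It stood at 16.0 ± 8.22 and 18.3 ± 5.55 CPM in wild type and PS2APP. For the genotype by age interaction, 0 members passed, with 0.0% of all genes called, and 3 had an unadjusted p under 0.05 (Pcna, Nusap1 and Cenpe), against 7.42% of all genes. DESeq2 called 83 genes for age and 4 for the interaction, and limma-voom none for either.

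Other genes of the same pathway were taken from 4 lists of 144 genes without the members. None of the 109 tested passed the edgeR test in either direction. Of 46 genes of origin licensing and the fork, 41 were tested, 24 positive and 17 negative, with a median log2 fold change of 0.11. The smallest p among them was that of Pole2, a subunit of polymerase epsilon, at 3.43 ± 1.33 and 8.44 ± 3.17 CPM (log2 fold change 1.29 ± 0.40, edgeR adjusted p = 0.142). Atad2, a chromatin ATPase, stood at 33.5 ± 5.87 and 51.1 ± 14.2 CPM (0.59 ± 0.20, adjusted p = 0.200), and Fen1, the nuclease that processes Okazaki fragments, at 10.5 ± 5.97 and 5.82 ± 3.81 CPM (-1.13 ± 0.41, adjusted p = 0.234). Of 54 spindle, kinetochore and cytokinesis genes, 31 were tested, 15 positive and 16 negative, with a median of -0.07. Kif20b, a kinesin of cytokinesis, had means of 3.66 ± 2.36 and 8.25 ± 3.54 CPM, and Racgap1, of the central spindle, 10.5 ± 19.6 and 2.41 ± 1.24 CPM. Of the 317 wild type reads of Racgap1, 243 were in sample 11, the medians were 2.88 and 2.48 CPM, and the log2 fold change of -2.09 ± 0.82 was -0.08 without that library. Of 29 G1 control and E2F genes, 24 were tested with a median of 0.09, and the repressor E2f8, with 27 wild type and 117 PS2APP reads, had the smallest p (2.02 ± 0.76, adjusted p = 0.252). Of 15 p53 targets, 13 were tested with a median of -0.17, and Btg2, which is also an immediate early gene, had the smallest p (-1.55 ± 0.62, adjusted p = 0.298), with a log2 fold change of -0.77 without wild type sample 9 or without sample 13.

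Markers of the sorted cells were checked beside these values. All 8 microglia markers were present in each library, summing to between 30468 and 40058 CPM in wild type and 23910 and 34674 CPM in PS2APP. All 8 had the lower mean in PS2APP, 3 with an unadjusted p under 0.05, and none passed the edgeR test (Tmem119 -0.50 ± 0.18, P2ry12 -0.38 ± 0.14 on the log2 scale, each with an adjusted p of 0.238). Markers of other cell types a sort can carry also differed between the groups. Of 5 astrocyte markers, summing to 279 to 886 CPM in wild type and 189 to 415 CPM in PS2APP, Gfap was higher in PS2APP (2.08 ± 0.42, edgeR adjusted p = 0.0120) and Slc1a2 lower (-1.01 ± 0.22, adjusted p = 0.0202). Of 4 endothelial markers, summing to 41.7 to 69.1 and 35.2 to 63.6 CPM, Pecam1 was lower in PS2APP (-1.21 ± 0.24, edgeR adjusted p = 0.0107) and Flt1 higher (2.27 ± 0.50, adjusted p = 0.0220). The 5 oligodendrocyte markers summed to 133 to 725 CPM in wild type and 81.2 to 217 CPM in PS2APP, and none passed the test. Neuron markers summed to 78.6 to 206 CPM in wild type and 14.9 to 78.5 CPM in PS2APP, without overlap, lower on average in PS2APP for 7 of 8. Of the 7 tested, Gad2 (-2.26 ± 0.53, edgeR adjusted p = 0.0315) and Slc17a7 (-1.94 ± 0.47, adjusted p = 0.0388) passed the test. T cell markers summed to at most 5.68 CPM in wild type and 0.51 in PS2APP, with Cd3e at 0 in all 9 PS2APP libraries. B cell markers stayed at or below 1.06 CPM. Neutrophil markers, S100a8, S100a9 and Ly6g, reached 50.6 CPM in wild type and 7.72 in PS2APP. Erythroid markers, Hba-a1, Hbb-bs and Alas2, summed to 5.58 to 44.2 CPM in wild type and 3.63 to 13.4 CPM in PS2APP. The monocyte markers Ccr2 and Ly6c2 summed to 15.0 to 33.3 and 23.9 to 38.3 CPM. Of 3 markers of oligodendrocyte progenitors, which divide in the adult cortex, Cspg4 was higher in PS2APP (log2 fold change 4.19, edgeR adjusted p = 1.2e-04), while Pdgfra, which defines those cells, lay between 0 and 2.51 CPM in wild type and 0 and 1.63 CPM in PS2APP. Vcan, the other marker of the list, stood at 2.71 ± 0.938 and 3.25 ± 1.83 CPM (edgeR adjusted p = 0.937). The sum of the 3, 2.79 to 6.60 CPM and 10.2 to 36.4 CPM, thus differed through Cspg4, at 0.831 ± 0.601 and 14.9 ± 7.995 CPM. The part of these cells in the values above was not tested.

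The counting was not stated to use strand, and 16 of the 37 members overlap another RefSeq gene, so reads of the partner cannot be told apart from theirs. Among them are Cdk4 with Tspan31, Ccnd3 with Bysl, Nusap1 with Oip5, Aurka with Cstf1 and Ccna2 with Exosc9. In addition, 5 members have a named pseudogene (Pcna, Tyms, Ccnb1, Ccnb2 and Ccnd3). Because only uniquely aligned reads were counted, their levels are uncertain.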

How the data were processed

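Bulk RNA-seq was made from sorted cortical microglia in 15 libraries (9 PS2APP, 6 wild type). Extraction used a micro-scale column kit and a Bioanalyzer quality check, per the labels' protocols. As aligner GSNAP was used and as genome GRCm38, per the submitters' processing notes. Their versions, the library kit and the strand setting were not given in the sources used here. The deposited counts are raw whole numbers of uniquely aligned reads for 36528 NCBI Gene IDs, per the file headers. The deposited RPKM are the authors' scaling of these counts to gene length and library size with a size factor per sample, per the file headers, which do not say how that factor was found.

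IDs were joined to a RefSeq table of GRCm38.p6 for symbols and positions: 31049 matched, with 97.2% to 98.2% of the reads, as did 237 of the 238 symbols in the gene lists. The count test was edgeR 4.0.16 (R 4.3.3) with filterByExpr by genotype, TMM scaling and quasi-likelihood fits of age and genotype over all 15 libraries. P-values were Benjamini-Hochberg adjusted over 13994 genes and called under 0.05. An SE is the log2 fold change over the root of its F statistic. Groups were taken from the genotype labels. Over 51 pairs of one group the chi-square per degree of freedom was at least 9.98, so no library was counted as a copy of another. On simulated counts (13730 genes), the genotype step recovered 31% of 2-fold and 78% of 4-fold changes, with 6.03% false calls.

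The members, lists and tests were chosen with earlier results of these data known. All 37 members are named, and of each other pathway list up to 4 genes with the smallest adjusted p qualified for naming. Alternatives were no age term, other scalings and count filters, DESeq2 1.42.0, limma-voom and limma-trend on log2(RPKM + 1) in limma 3.58.1, a robust fit, a neuron marker score as covariate, each age alone, sets of libraries left out, and each library left out in turn.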

Additional observations from a re-analysis of the deposited data

Results flagged for a closer look

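Within groups of 6 or 9 libraries, 17 values stood so far from the nearest other value that Dixon's test at the 95% level singled them out, 11 in wild type and 6 in PS2APP, among 80 groups of values examined. For normally distributed values, chance gives such a value in about 1 of 20 groups. CPM of genes with few reads need not be normal, so the 17 cannot be set against that rate. Wild type sample 11 was set apart in Mcm4 (76.0 CPM), Top2a (14.7 CPM) and Rrm2 (4.14 CPM). Of the 30 tested members it was the highest library for 3 and the lowest for 8, so it was not high throughout. Wild type sample 5 was set apart in Tyms (13.6 CPM), Bub1b (15.8 CPM) and Nusap1 (5.82 CPM), and wild type sample 2 in Mcm5 (26.7 CPM) and Foxm1 (20.1 CPM). Wild type sample 13 was highest in Pcna (65.2 CPM) and in Cdca8 (1.32 CPM), and wild type sample 9 in Cdc20 (2.01 CPM). In PS2APP, sample 1 was set apart in Cenpe (15.1 CPM) and Cdca8 (6.17 CPM), sample 15 in Mcm6 (30.5 CPM) and Plk1 (12.5 CPM), sample 7 in Pcna (23.1 CPM) and sample 4 in Tk1 (12.1 CPM). All 17 were high values, and no library was set apart in every gene of a stage.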

How the results depend on the processing

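No paired analysis was possible because the groups share no replicate numbers. Of 870 values of the 30 tested members under the alternatives, 793 kept direction and side of the threshold, 75 changed sign (39 of them with 1 library left out) and 2 passed the threshold, and 12 members never changed sign. Members called numbered 1 with DESeq2 (Tyms) and 1 without wild type sample 11 (Top2a), and 0 in each other alternative. Genes called for genotype numbered 165, and 50 at 14 months alone, 65 at 15 months alone, 484 with DESeq2, 18 with the neuron score, 648 with no count filter and 81 without the 3 libraries low in Xist. Those 3 libraries are the ones with Y-chromosome reads. DESeq2 called 83 genes for age and 4 for the interaction, where leaving out 1 library gave 0 to 3. The median of the replication genes was 0.20 at 15 months alone. That of the mitosis genes was 0.50 with limma-voom, 0.64 with the neuron score, 0.70 without the 4 libraries rich in immediate early transcripts, and -0.05 to 0.63 with 1 library left out. At 14 months alone, Mcm5 (0.13), Mcm6 (-0.17), Mcm7 (0.31), Rrm1 (-0.28), Mki67 (0.030), Ccna2 (0.10), Tpx2 (0.063), Nusap1 (-0.42), Cdk6 (-0.18), Ccne2 (-0.26), the other pathway genes Rnaseh2a (0.66) and Pmaip1 (-0.48) changed sign. At 15 months alone, Pcna (0.15), Bub1b (0.32), Aurka (-0.39), Plk1 (0.19) and Cdk4 (-0.16) changed sign. With limma-voom, Mcm7 (0.10), Rrm1 (-0.057), Mki67 (0.13), Ccna2 (0.020) and Cdk6 (-0.00088) changed sign. With the neuron score as covariate, Mcm6 (-0.17), Rrm1 (-0.14), Mki67 (0.70), Ccnb2 (-0.18) and Cdk4 (-0.17) changed sign. That score can be separated from genotype only poorly, as neuron marker sums, a related measure, did not overlap between the groups, by a narrow margin. Without the 4 libraries rich in immediate early transcripts, Pcna (0.79), Tk1 (0.051) and Cdk4 (-0.17) changed sign. Without the 3 libraries low in Xist, Mcm2 (-0.049), Pcna (0.32), Aurka (-0.082) and Cdk4 (-0.064) changed sign. With no age term, Aurka (-0.0014) and Cdk4 (-0.016) changed sign. With a minimum of 10 reads, Cdk4 (-0.0040) changed sign. With limma-trend on RPKM, Cdk4 (-0.00067) changed sign. With 1 library left out in turn, the log2 fold changes that changed sign ran, over all 15 omissions, for Mcm7 from -0.22 to 0.024, Pcna from -0.92 to 0.35, Rrm1 from -0.17 to 0.14, Tk1 from -0.44 to 0.026, Mki67 from -0.39 to 0.16, Ccna2 from -0.14 to 0.078, Bub1b from -0.68 to 0.15, Aurka from -0.17 to 0.63, Plk1 from -1.04 to 0.37, Cdk4 from -0.065 to 0.13 and Cdk6 from -0.052 to 0.13. In windows of 200 bases before the start, 32.7% of all genes held a CCAAT box, 14.4% a CHR element and 1.83% an E2F spelling, and CHR elements were in 40.0% of mitosis genes. The tested mitosis genes had the largest median standard error, with fewer reads and a spread between libraries above counting error, and the cause of the changes of sign was not tested.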
